A study of Mus musculus with 21 samples.

Results

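The genes described here are 35 genes of DNA replication and S phase, chosen by name and function: the machinery that licenses and fires replication origins, the polymerases and clamp at the fork, the enzymes that supply deoxynucleotides, and a few regulators of entry into S phase. Earlier results of these data were known when the genes were chosen, so the shares called below are not independent of these data. Of the 35 genes, 34 had a probe set that the annotation pairs with that gene alone, and Chaf1a had none. The brightest probe set stood for each gene, out of 18193 gene symbols on the array, and 31 of the 35 passed a filter on dim probe sets that left 13279 genes to test. Cdc6, Gins2 and Rfc3 fell below that filter and are given as values without a call.

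Expression was measured on 21 Affymetrix arrays of mouse heart RNA in 4 groups. Wild-type mice were sham operated (4 arrays) or had transverse aortic constriction, TAC, a ligature on the aorta that raises the pressure the left ventricle pumps against (6 arrays). G4D mice, a gene-targeted line with reduced Gata4, a transcription factor of the heart, were sham operated (5 arrays) or had TAC (6 arrays). The line is known as carrying 1 Gata4 allele without the second exon, in every cell of the animal. The sham operation did not constrict the aorta. Strain, age, sex and the time after surgery are not given in the sources used here. Replicates are known from the titles alone, which do not say whether each was its own animal, so p-values measure the spread between these arrays.

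Replication starts in 2 separable steps. Before S phase the origin recognition complex, with CDC6 and CDT1, loads the MCM helicase onto DNA, which licenses each origin to fire once. In S phase the helicase is activated, primase and polymerase alpha start each strand, the PCNA clamp holds the elongating polymerases, and ligase 1 seals the lagging strand. Most of these genes are transcribed under E2F factors as a cell passes from G1 into S phase. Adult mouse cardiomyocytes rarely divide, while fibroblasts, endothelial cells and macrophages of the heart can proliferate, so these genes are commonly read as markers of cycling cells in cardiac tissue.

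An E2F-type motif, found in a part of these genes, is printed here. The genes were not chosen by promoter sequence, but they were chosen as S-phase genes, which are mostly transcribed under E2F factors. The share with the motif is therefore not independent of the choice. RefSeq windows of GRCm38.p6, 250 bases before to 50 after each transcription start, were found for 30 of the 35 genes. Mcm4, Gins1, Gins2, Prim2 and Ccne2 had no entry. The motif was searched as TTTGGCGC, TTTCGCGC, TTTCCCGC or TTTGCCGC on both strands, with overlapping matches counted. The stretches below lie before the start and carry the match in capitals, 5′ to 3′ on the strand of the gene: Mcm5 (chr8:75109321-75109402, plus strand), Mcm6 (chr1:128359769-128359850, minus strand), Mcm7 (chr5:138172006-138172083, minus strand), Orc1 (chr4:108579392-108579453, plus strand), Pola1 (chrX:93632251-93632328, minus strand) and Uhrf1 (chr17:56304093-56304170, plus strand). The first 3 are subunits of the MCM helicase whose probe sets rose after TAC, and the last 3 belong to genes whose brightest probe sets did not pass the test.
Mcm5: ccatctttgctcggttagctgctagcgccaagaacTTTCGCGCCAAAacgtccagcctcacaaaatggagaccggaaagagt
Mcm6: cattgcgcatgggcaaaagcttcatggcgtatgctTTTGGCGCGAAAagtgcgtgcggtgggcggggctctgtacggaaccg
Mcm7: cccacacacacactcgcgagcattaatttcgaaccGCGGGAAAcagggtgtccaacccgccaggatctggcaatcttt
Orc1: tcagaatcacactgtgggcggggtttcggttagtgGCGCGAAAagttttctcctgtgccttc
Pola1: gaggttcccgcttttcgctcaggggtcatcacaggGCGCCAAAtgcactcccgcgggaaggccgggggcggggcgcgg
Uhrf1: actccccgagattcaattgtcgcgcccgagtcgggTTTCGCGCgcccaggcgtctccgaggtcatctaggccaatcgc

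In Mcm5 and Mcm6 the capitals hold 2 overlapping matches, 1 on each strand, and in the other stretches they hold 1. A window with a match was found for 12 of the 30 genes (40%), against 704 of all 27025 genes with a window (2.6%) and 4.32% of the 10656 tested genes with one. The 12 genes were Cdc6, Cdt1, Lig1, Mcm3, Mcm5, Mcm6, Mcm7, Orc1, Pola1, Pold1, Rfc3 and Uhrf1. The windows of the 30 genes were also richer in CpG, with a median of 24 CpG per window against 19 over the tested genes and 7 over all genes. Among the genes that rose after TAC in either genotype, 6 of 15 with a window held the motif (40%), and among those tested that did not, 4 of 12 (33.3%). The CCAAT box, read on both strands, was in 66.7% and 33.3% of these same genes, against 41.9% of all tested genes. The CHR motif TTTGAA was in 6.67% of the 30 genes, against 14.2% of the tested genes.

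Facts of the whole series that touch these genes are as follows. Over the tested genes, each array correlated at 0.969 or above with the average of the other arrays of its group, and no arrays were identical. The array medians ran from 4.31 to 5.33 on the deposited log2 scale, which is why arrays were quantile normalized, and G4D sham replicate 3 had the lowest. The labels name cardiac myocytes as the source, and 6 cardiomyocyte markers averaged 12.21 to 12.43 on the log2 scale over the arrays, but markers of other heart cells were also measured: 6 fibroblast markers averaged 8.46 to 10.28 and 5 endothelial markers 8.30 to 8.88. The mean of 2 atrial markers set G4D sham replicate 5 apart at 12.37, where the other sham arrays ran from 5.40 to 7.35, and G4D TAC replicate 6 was at 8.33, where the other TAC arrays ran from 5.61 to 6.48. In such a mixture, fewer cells of a type and less RNA per cell cannot be told apart.

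After TAC, 14 of the 31 tested genes were higher in wild-type hearts and none was lower (45.2% called, at an adjusted p under 0.05 from limma with Benjamini-Hochberg adjustment over all tested genes). Over all tested genes 5.19% were called higher, 2.16% lower and 7.35% in either direction. In G4D hearts 17 of the 31 were higher and none was lower (54.8%), against 13.2% of all tested genes called higher, 9.32% lower and 22.5% in either direction. The counts include Lig1 in both genotypes and Ccne2 in G4D, which passed the filter on dim probe sets only through their TAC arrays. Every TAC array lay above every sham array for 14 of the 31 genes in wild type, against 6.36% of all tested genes, and for 10 of the 31 in G4D, against 6.73%. The median log2 change of the 31 genes was 0.39 in wild type and 0.54 in G4D, and that of all tested genes was -0.02 in each. The changes ran from -0.18 to 2.12 in wild type and from -0.32 to 1.77 in G4D. Without G4D sham replicate 5, which stood apart in atrial markers, 18 genes were called higher in G4D and 1, Dut, lower, of 32 tested. Without G4D TAC replicate 6, 16 were called higher and none lower. Dut was also called lower in G4D under the 60th percentile filter, with array weights and without G4D TAC replicate 4, with changes of -0.27 to -0.33 over these settings. With the values as deposited, without quantile normalization, 6 genes were called in wild type (Cdt1, Mcm3, Mcm6, Lig1, Rrm2 and Tk1), where 0.678% of all genes were called higher, and 17 in G4D, where 16.6% were.

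**Figure D1:**
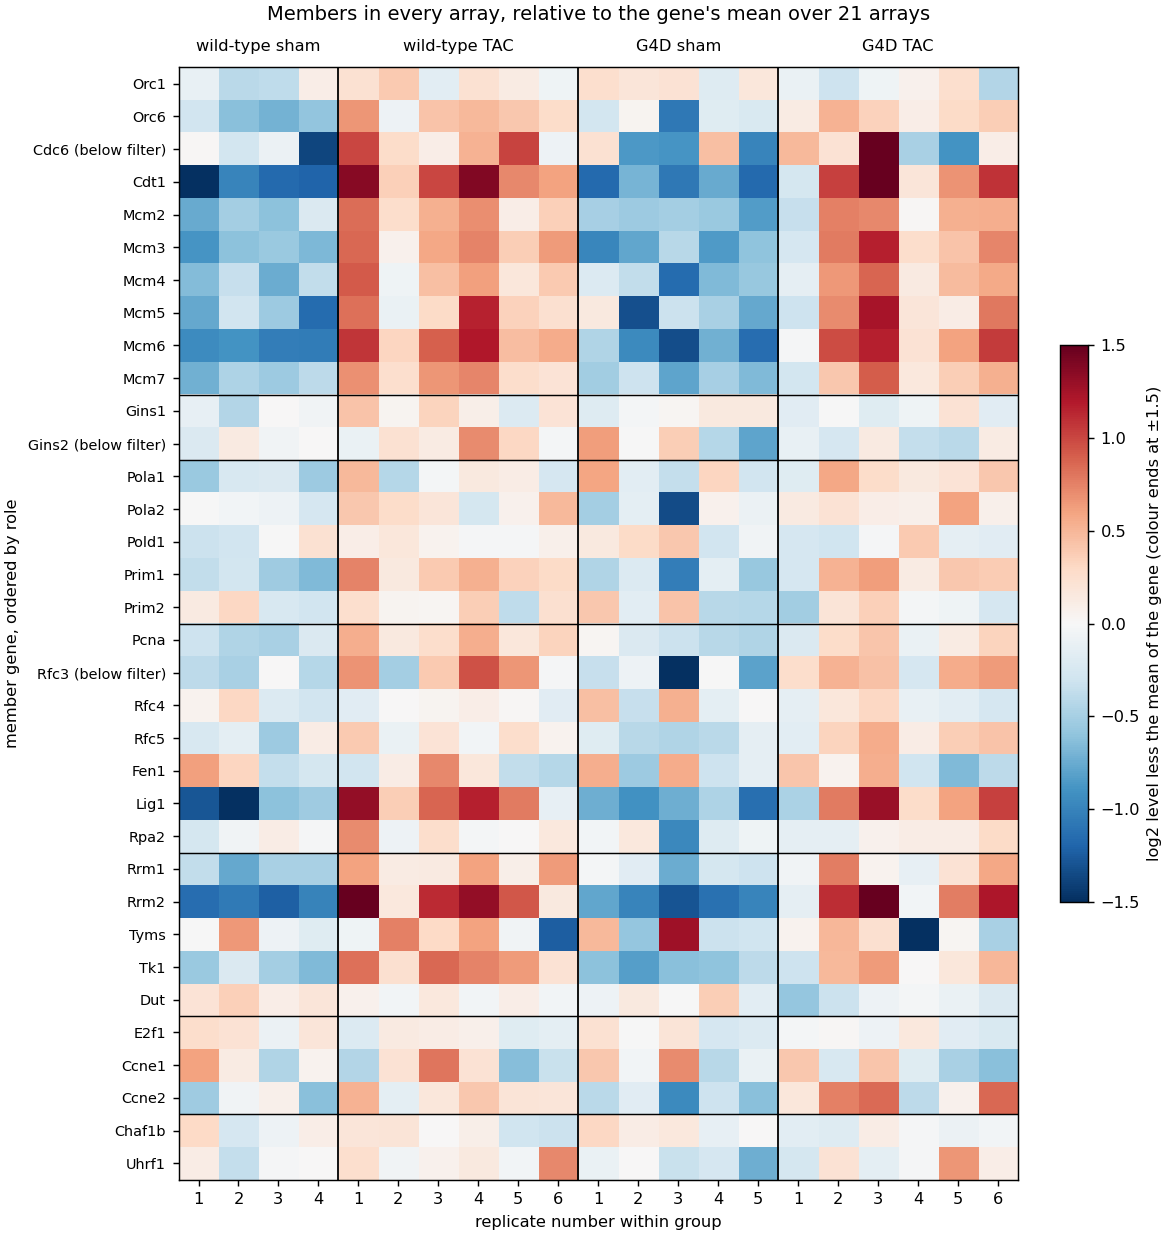
Level of the 34 genes with a probe set on each of the 21 arrays, in rows grouped by role, as the difference in log2 units from the mean of that gene over all arrays, with colours ending at 1.5 above or below it. Columns are arrays in the order of the 4 groups. The MCM genes, Cdt1, Lig1, Rrm2 and Tk1 are higher on most TAC arrays than on sham arrays in both genotypes, while Fen1, Ccne1 and Tyms vary from array to array within each group.

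The origin-licensing genes moved most uniformly. Of 9 tested, 8 rose in each genotype (88.9%), which were Cdt1, Orc6 and all 6 subunits of the MCM helicase, with Orc1 as the exception. Their median log2 change was 1.00 in both genotypes. Beside this group and those below, 5.19% of all tested genes were called higher in wild type and 13.2% in G4D.

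Cdt1, the loader that brings the MCM helicase to origins, had the largest change of the 31 genes in wild type (probe set 1424143_a_at). Its level in wild-type sham was 4.01, 4.52, 4.34 and 4.3 on the log2 scale, and after TAC it was between 5.86 and 6.90 with a median of 6.37. In G4D sham it was 4.34, 4.81, 4.44, 4.75 and 4.34, and after TAC it was between 5.24 and 7.07 with a median of 6.36. All TAC arrays of both genotypes lay above all sham arrays, and the lowest of them was G4D TAC replicate 1. The log2 change was 2.12 ± 0.27 (SE) in wild type, a 4.35-fold rise (adjusted p = 7.25e-05), and 1.68 ± 0.25 in G4D, a 3.21-fold rise (adjusted p = 6.8e-05). The wild-type sham mean of 4.29 was below the filter level of 4.35.

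Mcm6, a helicase subunit, was steady in wild-type sham at 5.77, 5.82, 5.67 and 5.66 (probe set 1416251_at). It rose to between 7.04 and 7.91 after TAC, with a median of 7.44. In G4D sham it was 6.26, 5.76, 5.38, 5.99 and 5.57, and after TAC it was between 6.69 and 7.87 with a median of 7.50. The groups did not overlap in either genotype. The change was 1.73 ± 0.22 (3.32-fold, adjusted p = 7.73e-05) in wild type and 1.59 ± 0.21 (3.0-fold, adjusted p = 1.63e-05) in G4D. The other 5 subunits, Mcm2, Mcm3, Mcm4, Mcm5 and Mcm7, rose by 0.94 to 1.23 in wild type and by 0.90 to 1.25 in G4D on the same scale. Their largest adjusted p, that of Mcm5, was 0.0197 in wild type, and the call on Mcm5 was lost without wild-type sham replicate 1 (log2 change 1.12), wild-type sham replicate 4 (0.99) or wild-type TAC replicate 4 (1.01).

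Orc6, the smallest subunit of the origin recognition complex, rose by 0.92 ± 0.17 in wild type (adjusted p = 0.00176), and the G4D rise was 0.64 ± 0.16 (adjusted p = 0.00544). Orc1, the largest subunit, had a dim probe set with group means of 4.34 and 4.67 in wild-type sham and TAC and 4.67 and 4.45 in G4D sham and TAC. Its changes of 0.32 ± 0.14 (adjusted p = 0.184) and -0.22 ± 0.13 (adjusted p = 0.234) did not pass the test. Cdc6, which works with CDT1 in loading, had group means of 2.26 and 3.17 in wild type and 2.28 and 2.86 in G4D, near the low end of the scale, and its changes of 0.91 and 0.57 in a fit of all probe sets had adjusted p = 0.339 and 0.407.

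**Figure D2:**
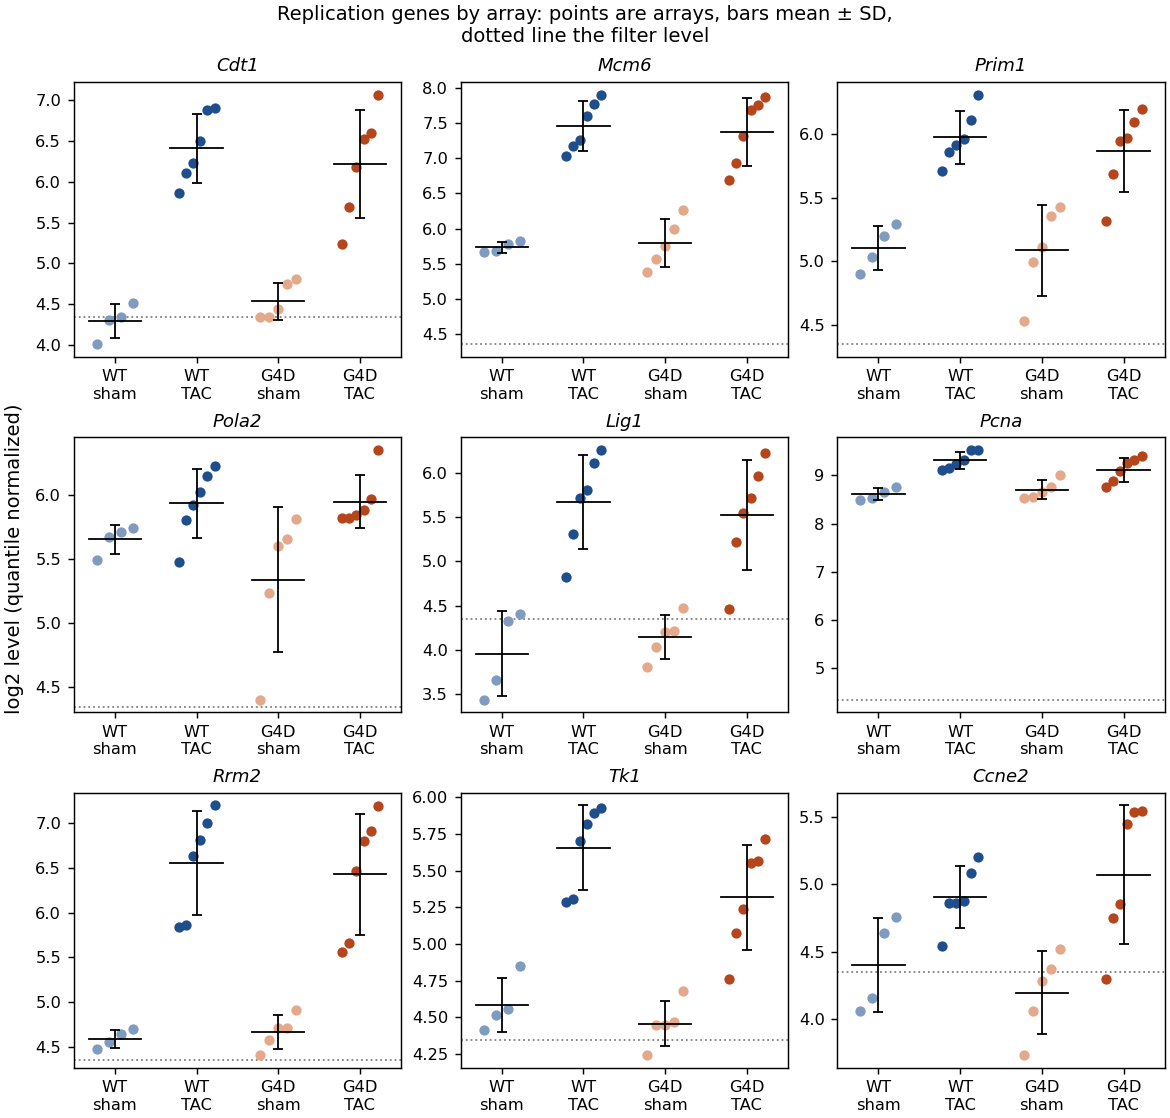
Log2 level on each array (points) and group mean with SD (bars) for Cdt1, Mcm6, Prim1, Pola2, Lig1, Pcna, Rrm2, Tk1 and Ccne2 in the groups of 4 wild-type sham, 6 wild-type TAC, 5 G4D sham and 6 G4D TAC arrays; the dotted line is the filter level of 4.35. The vertical scale differs between panels. Cdt1, Mcm6, Rrm2 and Tk1 have no TAC array at or below a sham array of the same genotype, while the groups of Ccne2 overlap in both.

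Helicase activation was represented by Gins1, a subunit of the GINS complex that joins the MCM helicase at the active fork. It had a wild-type change of 0.30 ± 0.12 (adjusted p = 0.15) and a G4D change of -0.08 ± 0.11 (adjusted p = 0.659). Gins2, a subunit of the same complex below the filter, had group means of 4.04 and 4.27 in wild type and 4.02 and 3.92 in G4D.

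Of the 5 genes for polymerase alpha, primase and polymerase delta, 1 rose in wild type and 2 in G4D, with median changes of 0.28 and 0.22. Prim1, the catalytic subunit of primase (probe set 1418369_at), was 5.20, 5.29, 5.03 and 4.90 in wild-type sham and between 5.71 and 6.31 after TAC, with a median of 5.93. In G4D it was 5.11, 5.36, 4.53, 5.42 and 5.0 in sham and between 5.31 and 6.20 after TAC, with a median of 5.96. The wild-type groups were separate, and in G4D only TAC replicate 1 was within the range of the sham arrays. The change was 0.87 ± 0.17 in wild type (1.83-fold, adjusted p = 0.0033) and 0.78 ± 0.16 in G4D (1.72-fold, adjusted p = 0.00132).

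Pola2, the accessory subunit of polymerase alpha (probe set 1448369_at), was 5.74, 5.71, 5.67 and 5.49 in wild-type sham and between 5.48 and 6.22 after TAC. In G4D sham it was 5.23, 5.60, 4.40, 5.81 and 5.65, and after TAC it was between 5.82 and 6.35 with a median of 5.86. Sham and TAC overlapped in wild type. In G4D they were separate by a narrow margin, and sham replicate 3, at 4.40, sat far below the other arrays. The wild-type change was 0.28 ± 0.20 (adjusted p = 0.493) and the G4D change 0.61 ± 0.19 (1.52-fold, adjusted p = 0.0248). Without G4D sham replicate 3 the G4D change was 0.38 and no longer passed the test, and the call was also lost without G4D sham replicate 1 (0.58) or G4D TAC replicate 5 (0.52). Pola1, Pold1 and Prim2, the catalytic subunits of polymerases alpha and delta and the large subunit of primase, did not pass in either genotype, with changes between -0.18 and 0.39.

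Of the 6 tested genes for the clamp, its loader, lagging-strand processing and single-strand binding, 2 rose in wild type and 3 in G4D. Lig1, the ligase that joins Okazaki fragments (probe set 1416641_at), was 3.66, 3.44, 4.33 and 4.41 in wild-type sham and between 4.82 and 6.26 after TAC, with a median of 5.77. In G4D it was 4.21, 4.04, 4.21, 4.48 and 3.81 in sham and between 4.46 and 6.23 after TAC, with a median of 5.63. Every TAC array was above the sham arrays of its genotype except G4D TAC replicate 1. The change was 1.71 ± 0.30 in wild type (3.28-fold, adjusted p = 0.00123) and 1.38 ± 0.28 in G4D (2.6-fold, adjusted p = 0.00123). Both sham means, 3.96 and 4.15, lay below the filter level.

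Pcna, the sliding clamp, was the brightest of the 31 genes (probe set 1417947_at). It was 8.66, 8.53, 8.50 and 8.77 in wild-type sham and between 9.12 and 9.53 after TAC, with a median of 9.28. In G4D it was 9.01, 8.76, 8.66, 8.56 and 8.53 in sham and between 8.77 and 9.4 after TAC, with a median of 9.18. The wild-type groups were separate, and in G4D the lowest TAC arrays, replicates 1 and 4, fell within the range of the sham arrays. The change was 0.70 ± 0.13 in wild type (1.62-fold, adjusted p = 0.00176) and 0.42 ± 0.12 in G4D (1.33-fold, adjusted p = 0.0156). Rfc5, a subunit of the clamp loader, rose in G4D by 0.59 ± 0.13 (1.5-fold, adjusted p = 0.00238) and had a change of 0.33 ± 0.14 in wild type (adjusted p = 0.171).

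Rfc4, Fen1 and Rpa2, which serve in the clamp loader, in removing the flaps of Okazaki fragments and in coating single-stranded DNA, did not pass in either genotype, with changes between -0.13 and 0.27. Rfc3, below the filter, had group means of 3.99 and 4.67 in wild type and 3.71 and 4.67 in G4D. Fitted with all probe sets, its wild-type change was 0.69 ± 0.31 (adjusted p = 0.323) and its G4D change 0.96 ± 0.29 (adjusted p = 0.0374).

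Of the 5 genes of deoxynucleotide supply, the same 3 rose in each genotype, Rrm1, Rrm2 and Tk1, and the list had median changes of 0.89 in wild type and 0.54 in G4D. Rrm2, the subunit of ribonucleotide reductase whose amount follows S phase (probe set 1434437_x_at), was 4.55, 4.64, 4.47 and 4.70 in wild-type sham and between 5.84 and 7.20 after TAC, with a median of 6.73. In G4D it was 4.91, 4.71, 4.41, 4.58 and 4.71 in sham and between 5.56 and 7.19 after TAC, with a median of 6.63. The groups were separate in both genotypes, and the TAC arrays of each spread over more than 1 log2 unit. The rise was 1.97 ± 0.29 in wild type (3.92-fold, adjusted p = 0.000329) and 1.77 ± 0.28 in G4D (3.40-fold, adjusted p = 0.000102).

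Tk1, the cytosolic thymidine kinase (probe set 1416258_at), was 4.52, 4.85, 4.56 and 4.41 in wild-type sham and between 5.28 and 5.93 after TAC, with a median of 5.76. In G4D it was 4.45, 4.24, 4.45, 4.47 and 4.68 in sham and between 4.76 and 5.71 after TAC, with a median of 5.40. The groups were separate in both genotypes. The change was 1.07 ± 0.17 in wild type (2.10-fold, adjusted p = 0.00052) and 0.86 ± 0.16 in G4D (1.82-fold, adjusted p = 0.000464).

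Rrm1, the large subunit of ribonucleotide reductase, rose by 0.89 ± 0.17 in wild type (adjusted p = 0.00324), and the G4D rise was 0.54 ± 0.16 (adjusted p = 0.0206). The G4D call on Rrm1 was lost without G4D sham replicate 3 (0.44), G4D TAC replicate 2 (0.44) or G4D TAC replicate 6 (0.47). Tyms, which makes thymidylate, had changes of -0.05 ± 0.41 and -0.32 ± 0.38, and 95% intervals of -0.89 to 0.80 in wild type and -1.11 to 0.47 in G4D. Dut, which removes dUTP, had changes of -0.18 ± 0.11 (adjusted p = 0.391) and -0.27 ± 0.10 (adjusted p = 0.0586).

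Of the 3 regulators of S-phase entry, none passed in wild type and 1 rose in G4D. Ccne2, an E-type cyclin (probe set 1422535_at), was 4.15, 4.64, 4.76 and 4.06 in wild-type sham and between 4.54 and 5.21 after TAC, with a median of 4.87. In G4D it was 4.28, 4.52, 3.73, 4.37 and 4.06 in sham and between 4.29 and 5.54 after TAC, with a median of 5.15. The groups overlapped in both genotypes. The wild-type change was 0.50 ± 0.22 (adjusted p = 0.204) and the G4D change 0.88 ± 0.21 (1.84-fold, adjusted p = 0.00436). Over the sham arrays of both genotypes together the mean of Ccne2 lay below the filter level, so it too passed the filter only through its TAC arrays. On their brightest probe sets, E2f1, an activating E2F factor, had changes of -0.18 ± 0.11 and -0.04 ± 0.10, and Ccne1, the other E-type cyclin, had changes of -0.11 ± 0.28 and -0.23 ± 0.26. Both genes have other probe sets, whose changes are not given here.

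At the level of chromatin behind the fork, Chaf1b, a subunit of the histone chaperone CAF-1, had changes of -0.04 ± 0.12 in wild type and -0.16 ± 0.11 in G4D. Uhrf1, which brings DNA methyltransferase to newly copied DNA, had changes of 0.24 ± 0.18 (adjusted p = 0.496) and 0.37 ± 0.16 (adjusted p = 0.114) on its brightest probe set, 1415811_at. Neither gene passed the test there.

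Many of these genes were dim in sham hearts. Of the 34 genes with a probe set, 6 had a wild-type sham mean below the filter level (Orc1, Cdt1, Lig1, Cdc6, Gins2 and Rfc3) and 6 had a G4D sham mean below it (Lig1, Ccne2, Uhrf1, Cdc6, Gins2 and Rfc3). After TAC 2 were below it in each genotype. Another mark was the 95th percentile of 80 probe sets for olfactory and vomeronasal receptors, genes not known to be expressed in quantity in the heart. It was 5.63 in wild-type sham, 5.63 in wild-type TAC, 5.66 in G4D sham and 5.57 in G4D TAC. By the mark of each group, 23 of the 34 genes were within the receptor range in wild-type sham and 23 in G4D sham. After TAC there were 12 in wild type and 14 in G4D.

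The choice of probe set mattered for several genes. The 34 genes had 76 probe sets in all, 27 genes having more than 1. Beside the 31 that stood for the tested genes there were 45, among them all those of Cdc6, Gins2 and Rfc3. Of these 45, 12 were higher after TAC in wild type, 19 in G4D and none was lower in either, in a fit of all 34945 probe sets with 1 gene symbol, where 2.27% and 7.30% were called higher. Counting a gene as called when any of its probe sets was, a rule chosen after seeing the data, gave 16 of the 34 genes in wild type and 21 in G4D. Not all of the 45 are named here, so a gene without a call on its brightest probe set may have one on another. The rule gives more chances to a gene with several probe sets. Its share over all genes was not computed, so these counts have no background to be read against.

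For Uhrf1 the probe sets differed most. Its dimmer probe set 1415810_at had a wild-type mean of 2.16 ± 0.25 (SD, n = 4) under sham and 5.03 ± 0.70 (SD, n = 6) after TAC, and a G4D mean of 2.67 ± 0.45 (SD, n = 5) and 4.91 ± 0.96 (SD, n = 6). The groups did not overlap in either genotype. Both sham means lay below the filter level of 4.35 and below the median of the olfactory and vomeronasal receptor probe sets, 3.63 in wild type and 3.59 in G4D, so they are not above background and the sizes that follow are not firm. The fitted difference was 2.86 ± 0.42 in wild type and 2.24 ± 0.40 in G4D, against 0.24 and 0.37 on the brightest probe set. For Fen1 the unused probe set 1421731_a_at changed by 1.00 ± 0.26 (adjusted p = 0.0405) and 0.85 ± 0.24 (adjusted p = 0.0251), against -0.09 and -0.08 on the one used, 1436454_x_at, whose suffix marks probes that can match other transcripts. The Fen1 sham means on the unused probe set, 4.15 and 4.12, were also below the filter level. The probe sets used for Rrm2 and Ccne1 carry the same suffix as the one used for Fen1. So do the dimmer Mcm5 and Mcm6 probe sets given next.

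For the MCM genes the dimmer probe sets showed larger changes in some cases and none in others. Mcm5 probe set 1436808_x_at rose by 2.84 ± 0.38 in wild type and 2.30 ± 0.36 in G4D, and Mcm6 probe set 1438852_x_at rose by 2.73 ± 0.42 and 1.86 ± 0.40, from sham means of 2.25 to 3.94 that lay below the filter level. Mcm3 probe set 1420029_at had changes of 0.04 and 0.19 and did not pass. Cdt1 probe set 1455791_at, with group means of 1.79 to 2.66, had changes of -0.72 ± 0.41 (adjusted p = 0.507) and -0.74 ± 0.39 (adjusted p = 0.26). Which probe set reports the transcript best was not tested.

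The genotypes were then compared. All 14 genes called in wild type were among the 17 called in G4D, the other 3 being Pola2, Rfc5 and Ccne2, and 14 passed in neither. The G4D log2 change was smaller than that in wild type for 12 of the 14 shared genes, Mcm3 and Mcm4 being the exceptions, but for only 4 of them in the values as deposited and for 10 after median centring. Over all 13279 tested genes, quantile normalized, the G4D change was the smaller for 6429. In the deposited values the median of all tested genes itself was larger in G4D, by 0.42. No gene passed the test of the difference between the 2 TAC responses (limma), and over all tested genes 0.0151% did. At an unadjusted p under 0.05 there were 2 of the 31, and 8.36% of all tested genes. The intervals of that difference show what the arrays could resolve. For Cdt1 the G4D change less the wild-type change was -0.44 (95% interval -1.2 to 0.32), for Mcm6 -0.15 (-0.78 to 0.48), for Rrm2 -0.21 (-1.05 to 0.63) and for Pcna -0.28 (-0.65 to 0.08). For the genes called in G4D alone the difference was 0.33 (-0.25 to 0.90) for Pola2 and 0.37 (-0.26 to 1.01) for Ccne2, so these genes were not shown to respond differently.

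The genes under an unadjusted 0.05 there, named after their values were seen, were Orc1 at -0.55 ± 0.19 (adjusted p = 0.381) and Gins1 at -0.38 ± 0.16 (adjusted p = 0.529). Orc1 was 4.43, 4.14, 4.16 and 4.64 in wild-type sham and between 4.39 and 4.94 after TAC, and 4.80, 4.73, 4.76, 4.35 and 4.72 in G4D sham and between 4.11 and 4.80 after TAC. The groups overlapped in both genotypes.

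**Figure D3:**
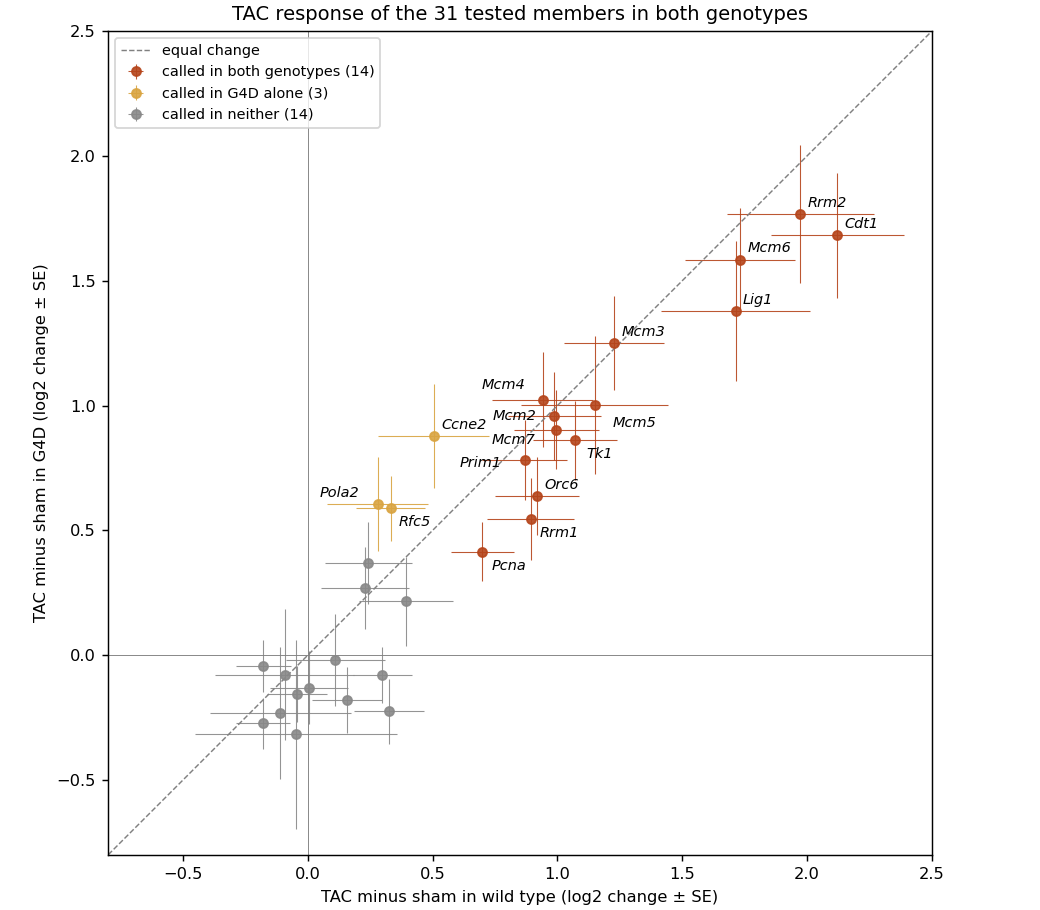
TAC minus sham log2 change in wild type (horizontal axis) against that in G4D (vertical axis) for the 31 tested genes, with SE bars and a dashed line of equal change. The 14 genes called in both genotypes lie to the upper right, 12 of them below the dashed line (4 of the 14 with the values as deposited), and the 3 called in G4D alone lie above it.

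In sham hearts no gene was called different between G4D and wild type (limma), against 0.0527% of all tested genes, and 1 of 31 had an unadjusted p under 0.05, against 8.09% of all tested genes, with a median difference of 0.01 and a range of -0.31 to 0.41. After TAC again none was called, against 3.36% of all tested genes, and 2 of 31 had an unadjusted p under 0.05, against 13.4% of all tested genes. The median difference after TAC was -0.09, with a range of -0.34 to 0.23, and it turned to 0.04 in the values as deposited. Over all 13279 tested genes, quantile normalized, the G4D mean was the lower for 6820 after TAC and for 6916 in sham. Of the 31 genes, it was the lower for 26 after TAC and for 15 in sham, and for 11 and 25 in the values as deposited. Those under an unadjusted 0.05 after TAC, named after their values were seen, were Tk1 at -0.34 ± 0.15 (adjusted p = 0.316) and Dut at -0.25 ± 0.10 (adjusted p = 0.22).

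Within the TAC groups the same arrays tended to be high or low for many of the genes that rose. Averaged over the 14 genes called in both genotypes, a list chosen on these values and given as a description, the level was between 5.25 and 5.36 on the wild-type sham arrays and between 5.19 and 5.53 on the G4D sham arrays. It was 6.91, 6.16, 6.61, 6.85, 6.41 and 6.34 on wild-type TAC replicates 1 to 6 and 5.79, 6.70, 6.89, 6.10, 6.41 and 6.69 on G4D TAC replicates 1 to 6. G4D TAC replicate 1 was the lowest of its group for 12 of the 14 genes, and G4D TAC replicate 3 was the highest for 11. Wild-type TAC replicates 1 and 4 were above their group median for all 14, and replicate 2 for none.

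Leaving out G4D TAC replicate 1 kept 17 calls in G4D. It raised the G4D change of Cdt1 from 1.68 to 1.88, that of Lig1 from 1.38 to 1.59 and that of Rrm2 from 1.77 to 1.94. The median genotype difference after TAC became -0.02 without that array, and the median difference of the TAC responses went from -0.13 to -0.04. Replicate 1 was picked as the lowest for most of the genes that rose, so leaving it out was bound to raise their G4D level. Without G4D TAC replicate 3, the highest for most of them, these 2 medians were -0.16 and -0.21. Leaving out each array in turn gave 13 to 14 calls in wild type and 15 to 19 in G4D.

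**Figure D4:**
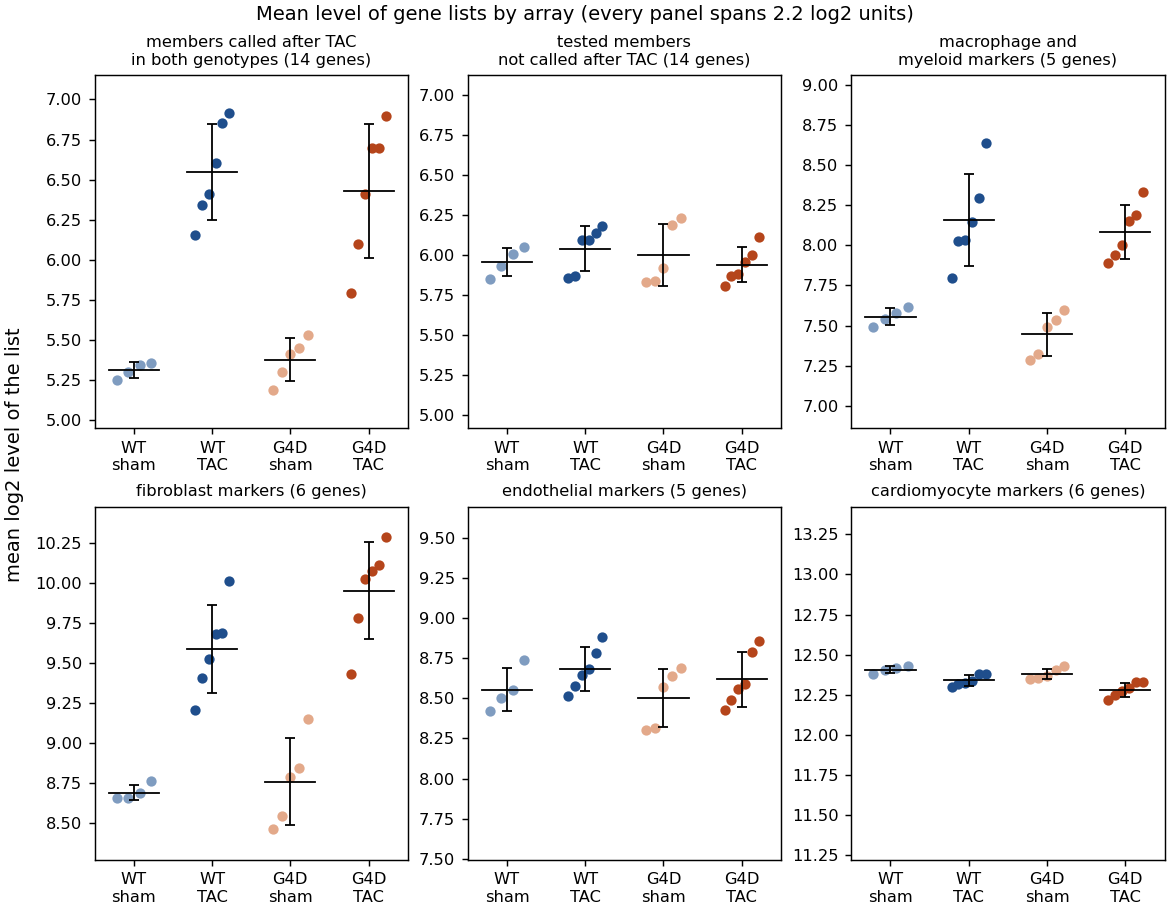
Mean log2 level per array (points) of the genes called in both genotypes and of the tested genes called in neither, and of macrophage, fibroblast, endothelial and cardiomyocyte markers, with the group mean and SD as bars; every panel spans 2.2 log2 units. The lowest G4D TAC point among the genes called in both genotypes, at 5.79, is replicate 1.

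Markers of other heart cells moved after TAC as well. For scale, 5.19% of all tested genes were called higher and 2.16% lower in wild type, and 13.2% and 9.32% in G4D. Of 5 tested macrophage and myeloid markers, 4 rose in wild type and all 5 in G4D, and their mean per array was 7.49 to 7.61 in wild-type sham, 7.79 to 8.64 in wild-type TAC, 7.28 to 7.6 in G4D sham and 7.89 to 8.34 in G4D TAC. Of 6 fibroblast markers, 3 rose in each genotype (Col1a1, Lum and Postn), and Pdgfra, Dcn and Tcf21 passed in neither. The mean of the 6 was 8.65 to 8.76, 9.21 to 10.01, 8.46 to 9.15 and 9.43 to 10.28 in the same order. On G4D TAC replicate 1, where the replication genes were lowest, the fibroblast mean was 10.11 and the macrophage mean 8.0, above and below their group medians. Of 5 endothelial markers, 1 rose in wild type (Pecam1) and none in G4D, and of 6 cardiomyocyte markers none passed in wild type and 2 fell in G4D (Pln by 0.20 and Tnni3 by 0.21). Only 2 of 6 lymphocyte markers passed the filter, and neither was called. The part of these cell types in the change of the replication genes was not tested.

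A sign of RNA quality also differed with the operation. The level of the 3′ actin control less that of the 5′ one averaged 0.52 ± 0.10 (SD, n = 4) on the wild-type sham arrays and 0.32 ± 0.11 (SD, n = 6) on the wild-type TAC arrays. On the G4D arrays it averaged 0.46 ± 0.10 (SD, n = 5) and 0.25 ± 0.08 (SD, n = 6). Sham and TAC did not overlap in either genotype, whereas the same measure on the Gapdh controls overlapped in both. Its part in the results was not tested.

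A wider list of 41 other replication and S-phase genes, picked by function with earlier results of these data known, had 35 tested members. Of these, 6 rose in wild type (17.1%) and 8 in G4D (22.9%), against 5.19% and 13.2% of all tested genes called higher. None fell, and the median change was 0.10 in each, so most of this list was not called. Those with the largest changes were Ccna2, the cyclin of S phase and G2, at 1.95 ± 0.25 in wild type (adjusted p = 9.85e-05) against 1.66 ± 0.24 in G4D (adjusted p = 4.54e-05), and Dck, deoxycytidine kinase, at 0.94 ± 0.29 (adjusted p = 0.0513) and 1.29 ± 0.27 (adjusted p = 0.00148). Tipin, of the fork-protection complex, rose by 0.75 and 0.87, E2f7, a repressive E2F factor, by 0.77 and 0.79, and Slbp, which binds the stem-loop of histone mRNAs, by 0.65 and 0.50. Cdc45, the partner of GINS in the active helicase, had changes of -0.13 ± 0.14 and -0.25 ± 0.13 and did not pass.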

How the data were processed

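Expression was measured on 21 arrays in 4 groups taken from the titles. The values are log2 probe-set values that the authors made with PLIER, per the submitters' processing notes, as deposited. Its version, background correction and normalization are not given in the sources used here, and the log2 scale was inferred from the range of -13.5 to 15.1. The 64 control probe sets were dropped and the arrays were quantile normalized with limma 3.58.1 in R 4.3.3. Probe sets with exactly 1 gene symbol and a mean over all 21 arrays at or above the 40th percentile (4.35) were kept. The brightest stood for its gene. The platform annotation gave 1 symbol to 34945 probe sets, several to 932 and none to 9160.

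Means of the 4 groups were fitted in 1 limma model with eBayes over 13279 genes (17 residual degrees of freedom), with 5 comparisons. Calls needed a two-sided p under 0.05 after Benjamini-Hochberg adjustment. Errors of changes are the fit's SE. The number of arrays limits the precision. On simulated data, 85.1% of genes changed by 1 log2 unit were called in the wild-type TAC comparison and 55.2% of those changed by 0.5. The simulation had noise independent between genes and gave 167 calls, where the data gave 976. The adjusted threshold therefore differed, and the rates need not hold for these arrays. Genes and lists were chosen with earlier results of these data known. Values on every array are given for the called genes with the largest mean TAC change, up to 2 in each role list of 5 or more and 1 in each smaller list. Of the other lists, up to 5 called genes with the largest mean change and every called gene that fell were named, and of the counterparts all. Alternatives were the deposited values, median centring, other filters, the mean of probe sets, array weights, a variance trend, a replicate block, 2-group fits and leaving out each array.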

Additional observations from a re-analysis of the deposited data

Results flagged for a closer look

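In 4 of the 136 groups of array values (34 genes in 4 groups), the highest or lowest array lay far from its neighbours by Dixon's test, where chance alone gives about 1 in 20 such groups. Mcm2 on G4D sham replicate 5 was 5.0451, the next array being 5.3259. Orc1 on G4D sham replicate 4 was 4.3528, the next being 4.7159. Orc6 on G4D sham replicate 3 was 3.9936, the next being 4.7858. Pola2 on G4D TAC replicate 5 was 6.3467, the next being 5.9619.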

How the results depend on the processing

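Of the 31 calls of single genes after TAC, 20 held in every one of the 30 settings that still tested the gene. With the values as deposited left aside 26 did, and none reversed. A gene that a setting removed was not counted as lost, and averaging probe sets left 24 genes. Calls were also gained: Dut was lower in G4D in 4 settings (-0.27 to -0.33) and Fen1 higher in G4D with the mean of probe sets (0.39). On the deposited values, 6 genes passed in wild type, and the median changes were -0.197 (genotypes in sham), 0.826 (TAC in G4D), 0.04 (genotypes after TAC) and 0.232 (difference of TAC responses). Averaging probe sets gave a wild-type median of 0.655 over 24 genes.

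Leaving out single arrays gave 13 to 14 calls in wild type, 15 to 19 in G4D and 0 in the genotype comparisons. The medians then ran from -0.03 to 0.08 (sham genotypes), 0.30 to 0.48 (wild-type TAC), 0.42 to 0.61 (G4D TAC), -0.16 to -0.02 (genotypes after TAC) and -0.21 to -0.04 (difference). Without quantile normalization the median of all genes moved to -0.28, -0.10, 0.31, 0.14 and 0.42 in the same 5 comparisons. Counts over all tested genes moved by over 1.5 times in these comparisons: 7 calls became 1 to 27 between sham genotypes, 976 became 95 to 598 for TAC in wild type, 446 became 64 to 829 between genotypes after TAC and 2 became 0 to 29 for the difference. Of the calls over all genes, 70.6% were higher after TAC in wild type and 58.6% in G4D, against 94.7% and 97.8% on the deposited values and 93.8% and 88.8% after median centring.

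The numbers did not pair the arrays (9 of 28 same-numbered pairs correlated over 0.1). With the replicate block, 13 genes were called in wild type and 15 in G4D, losing Mcm5 in wild type and Pcna and Rrm1 in G4D. Depth is not defined for arrays, and dim sham levels limit the folds.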

Other observations

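Genes with related tasks outside S phase were set beside the replication genes. Of 10 counterparts that work in mitochondria, in repair or without following S phase, 9 were tested, all but Mcm9. None was called after TAC in either genotype (limma), where 7.35% of all tested genes were called in wild type and 22.5% in G4D. At an unadjusted p under 0.05 there were 2 of 9 in each, against 19.9% and 34.3% of all tested genes. The changes in wild type and G4D were -0.21 and -0.16 for Rrm2b, the reductase subunit outside S phase, and -0.01 and 0.33 for Tk2, the mitochondrial thymidine kinase. They were -0.09 and -0.15 for Polg, the mitochondrial polymerase, and -0.03 and 0.06 for Polb, the repair polymerase. Lig3 and Lig4, ligases of repair, had changes of -0.80 and -0.16 and of -0.23 and 0.30, with an SE of 0.56 for Lig3 in wild type. Mcm8 had 0.00 and -0.13, Tfam -0.11 and -0.06, and Samhd1, which breaks down deoxynucleotides, -0.25 and -0.09.

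Among 6 pocket proteins and repressive E2F factors, Rbl1, which encodes p107, rose by 0.66 ± 0.14 in wild type (adjusted p = 0.00634) and by 0.38 ± 0.13 in G4D (adjusted p = 0.0455). Rbl2, which encodes p130, the pocket protein of quiescent cells, fell by 0.32 in G4D (SE 0.10, adjusted p = 0.0287) and had a change of -0.10 ± 0.11 in wild type. Rb1, E2f4, E2f5 and E2f6 did not pass in either genotype.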
